A study of Mus musculus with 8 samples.

Results

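The axon guidance genes of the ephrin, semaphorin, slit and netrin systems were compared between 2 mouse lung tumour lines, LLC1 and MLE12. The members were taken by gene name from the deposited count table, with earlier results of these data known. They were all ephrins, Eph receptors, semaphorins of the Sema3 to Sema7 groups, plexins, neuropilins, slits, Robo receptors, netrins and Unc5 receptors. This gave 68 of 43346 genes, 35 of them ligands and 33 receptors. LLC1 cells, of the Lewis lung carcinoma, arose in the lung of a C57BL mouse. MLE12 cells come from a lung tumour of a transgenic mouse in which the surfactant protein C promoter drove the SV40 large T antigen in distal lung epithelium. Both are established lines bought from ATCC, grown without added reagents and harvested before full confluence, and each is represented by 4 libraries of poly-A RNA. Each line stands for 1 tumour, so a difference between the lines cannot be told apart from a difference between those tumours. Library totals were 46.8 to 55.3 M counts in LLC1 and 48.6 to 76.7 M in MLE12. A count of 0 allowed a level of up to 0.0391 CPM in the deepest library and 0.064 CPM in the shallowest, which covers counting error only. Whether the libraries of a line are separate cultures is not in the labels, so the p-values reflect library spread that may be technical.

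The cell lines were checked against marker lists, which were also set with earlier results of these data known. The lung epithelial genes Cdh1, Nkx2-1, Sftpc, Sftpb, Cldn3 and Epcam stood at 3.36 to 154 CPM in MLE12 and at 0.0235 to 0.664 CPM in LLC1. The other 2 of the 8 epithelial markers, the keratin genes, went the opposite way. Krt18 had a mean of 0.93 CPM in MLE12, far below the 293 CPM of LLC1 (8.34 ± 0.12, log2 fold change ± SE, LLC1 over MLE12), and Krt8 had 106 CPM in MLE12 against 209 CPM (0.97 ± 0.04). The 8 fibroblast markers summed to 1460 to 1590 CPM in LLC1 and to 331 to 369 CPM in MLE12, and were split between the lines (LLC1 means are given first). Col3a1 (1478 and 2.7 CPM), Twist1 (45.2 and 0.104 CPM) and Pdgfra (10.2 and 0.202 CPM) were higher in LLC1. Dcn (2.34 and 319 CPM), Col1a1 (0.313 and 17.5 CPM) and Col1a2 (0.0495 and 6.14 CPM) were higher in MLE12, and Lum and Thy1 were too low to be tested. The 8 endothelial markers summed to 0.894 to 1.38 CPM in LLC1 and to 4.14 to 5.05 CPM in MLE12, and Tie1 and Emcn had no count in either line. Of the 7 macrophage and leukocyte markers found, Tyrobp had no count, Ptprc was at 0 in LLC1 with a mean of 0.00663 CPM in MLE12, and the list summed to 30.2 to 33.3 CPM in LLC1 and 19.6 to 22.3 CPM in MLE12, mostly from Csf1r, Cd14 and Cd68. The 8 neuronal markers summed to 9.67 to 11.9 CPM in LLC1 and 103 to 109 CPM in MLE12, where Tubb3 and Map2 made up most of the sum, while Snap25 was higher in LLC1 (6.16 and 0.0193 CPM) and Stmn2 had no count.

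Ephrins are ligands held on the cell surface, the ephrin-A group by a lipid anchor and the ephrin-B group by a transmembrane segment, and they signal through the Eph receptor tyrosine kinases of a touching cell and back into their own cell. Sema3 proteins are secreted and act through neuropilins paired with plexin-A receptors, whereas most other semaphorins are membrane proteins that bind plexins directly. Netrins are secreted relatives of laminins that attract through Dcc and neogenin and repel through Unc5 receptors, and slits are secreted repellents that bind Robo receptors. Outside the nervous system these families guide vessels and shape epithelia, including the branching lung, and they affect the spread of tumour cells.

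The repertoire of guidance genes differed between the lines in most families. Of the 68 genes, 54 had enough counts to be tested, 3 had no count in any library (Epha6, Epha7 and Unc5d), and the other 11 reached at most 57 counts summed over a line. Among the 54 tested, 20 were higher in LLC1, 30 were higher in MLE12 and 4 did not pass the test (adjusted p under 0.05, quasi-likelihood test of edgeR, Benjamini-Hochberg adjustment over all genes). This was 92.6% of the guidance genes tested, where 81.6% of all 18546 genes tested passed. By direction the shares were 37% higher in LLC1, against 40.7% of all genes, and 55.6% higher in MLE12, against 40.9%. The median log2 fold change, always LLC1 over MLE12, was -0.91 for the guidance genes and 0.02 for all genes. Against a minimum fold change of 2 (glmTreat), 15 guidance genes were higher in LLC1 and 23 in MLE12, together 70.4%, where 33.7% of all genes passed. Changes of at least 16-fold were seen in 5 guidance genes toward LLC1 and 10 toward MLE12, which is 9.26% and 18.5% of those tested, against 4.93% and 6.57% of all genes. The CPM ranges of the lines did not overlap for 49 of the 54, or 90.7%, as for 76.3% of all genes. CPM are counts set to a common library size, used to compare 1 gene between libraries, and RPKM are CPM per kilobase of the deposited gene length, used to compare genes. In bulk RNA a smaller number of cells that express a gene and less RNA per cell cannot be told apart.

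**Figure D1:**
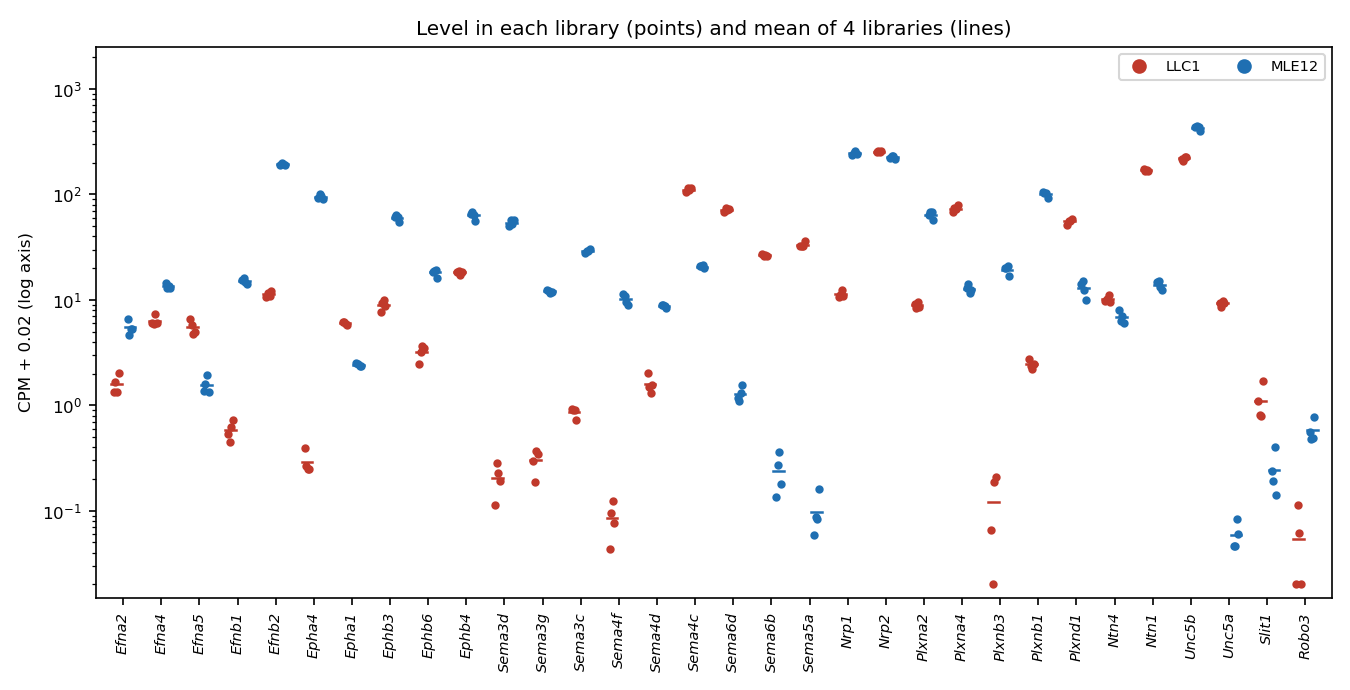
CPM plus 0.02 on a log axis for the 32 guidance genes described library by library, with 1 point per library (red LLC1, blue MLE12) and a line at the mean of 4 libraries. The points of a line lie close together for most genes above 1 CPM and are spread for low ones such as Plxnb3 and Robo3 in LLC1 and Slit1 in both lines. Epha4, Sema3d, Sema4f and Plxnb3 lie far lower in LLC1, and Sema5a, Sema6b and Unc5a far lower in MLE12.

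Among the 14 families, counted by a level of at least 1 RPKM in every library of a line, 29 guidance genes were present in LLC1 and 35 in MLE12. Both lines shared 21 of these, 8 were present in LLC1 alone, 14 in MLE12 alone and 25 in neither. The same rule was not applied to all genes, so these counts describe the guidance genes without a comparison. The median RPKM of all genes tested was 4.47 in LLC1 and 4.64 in MLE12. In LLC1 the highest levels per length were those of Plxnb2 (55.2 ± 3.55 RPKM, mean ± SD, n = 4), Unc5b (37.5 ± 1.57), Epha2 (36.1 ± 1.02), Ntn1 (27.1 ± 0.524), Sema4c (24.1 ± 0.976) and Nrp2 (21.5 ± 0.311). In MLE12 they were those of Plxnb2 (93.5 ± 7.55), Unc5b (72.9 ± 3.56), Efnb2 (44.8 ± 1.1), Nrp1 (41.5 ± 1.45), Epha2 (33.2 ± 2.92) and Nrp2 (19.1 ± 0.557). The plexin-B2, Unc5b, EphA2 and neuropilin-2 receptor genes were thus among the 6 highest in both lines. The ligand genes Ntn1 and Sema4c in LLC1 took the places that Efnb2 and the receptor gene Nrp1 held in MLE12.

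**Figure D2:**
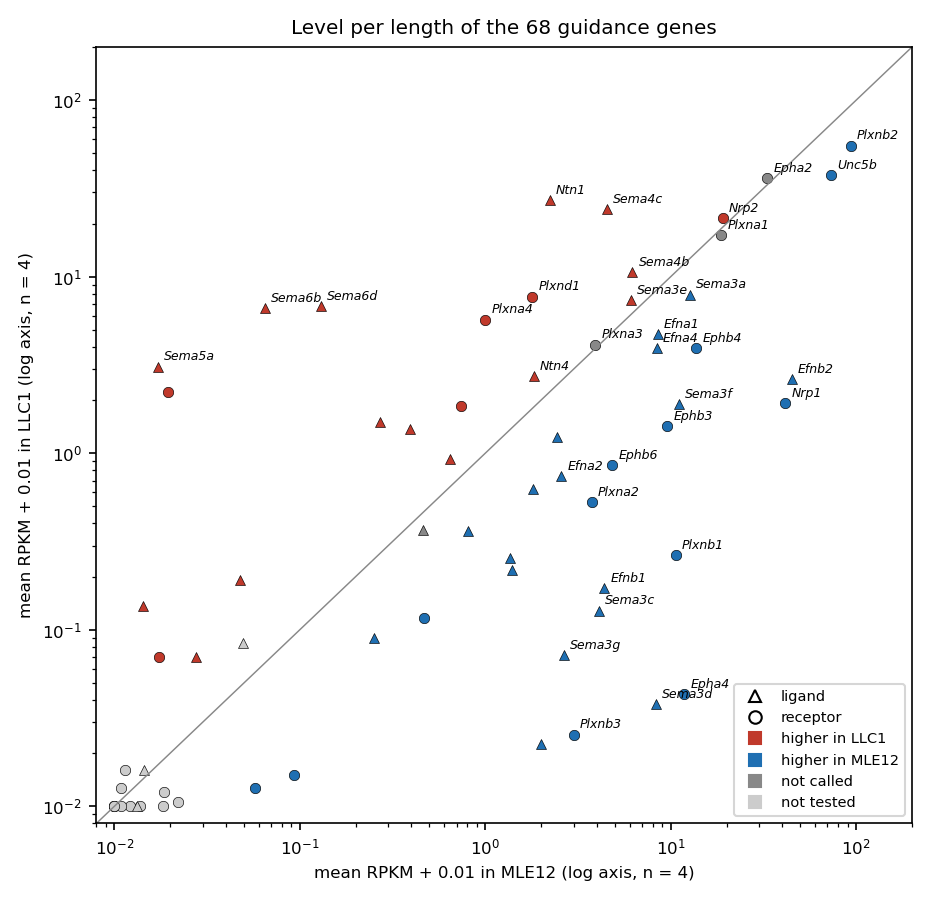
Mean RPKM plus 0.01 of the 68 guidance genes in MLE12 (x axis) and LLC1 (y axis), both on log axes, with triangles for ligands, circles for receptors and colour for the call. Plxnb2, Unc5b, Epha2, Nrp2 and Plxna1 lie near the diagonal at high levels, while Ntn1, Sema4c, Sema5a, Sema6b and Sema6d lie above it and Efnb2, Nrp1, Epha4 and Plxnb1 below it.

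To show the starting regions of the members that differed most, the promoters of the 3 members with the largest changes in each direction among those described by library are given, from the RefSeq table of build GRCm38.p6. Each runs from 250 bases before to 50 after the start of the gene, in the direction of transcription, and capitals mark CpG dinucleotides, the sites at which mammalian DNA is methylated. The first 3 belong to genes higher in LLC1 and the last 3 to genes higher in MLE12. They lie at chr15:32244563-32244862 on the plus strand (Sema5a), chr13:54949161-54949460 on the plus strand (Unc5a), chr17:56140294-56140593 on the minus strand (Sema6b), chr1:77515039-77515338 on the minus strand (Epha4), chr5:12382916-12383215 on the plus strand (Sema3d) and chrX:73756853-73757152 on the plus strand (Plxnb3).
Sema5a: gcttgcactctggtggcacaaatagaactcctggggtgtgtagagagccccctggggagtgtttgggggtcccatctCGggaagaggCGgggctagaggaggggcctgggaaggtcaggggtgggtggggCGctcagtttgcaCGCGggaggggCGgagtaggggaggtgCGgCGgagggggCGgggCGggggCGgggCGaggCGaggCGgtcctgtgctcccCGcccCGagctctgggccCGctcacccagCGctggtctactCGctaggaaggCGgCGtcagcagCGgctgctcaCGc
Unc5a: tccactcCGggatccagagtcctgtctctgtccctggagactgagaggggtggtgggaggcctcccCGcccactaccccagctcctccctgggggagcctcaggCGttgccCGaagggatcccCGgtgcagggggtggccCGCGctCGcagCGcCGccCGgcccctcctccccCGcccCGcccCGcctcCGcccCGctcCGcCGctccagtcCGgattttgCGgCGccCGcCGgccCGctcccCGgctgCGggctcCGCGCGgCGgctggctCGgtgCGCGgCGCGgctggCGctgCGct
Sema6b: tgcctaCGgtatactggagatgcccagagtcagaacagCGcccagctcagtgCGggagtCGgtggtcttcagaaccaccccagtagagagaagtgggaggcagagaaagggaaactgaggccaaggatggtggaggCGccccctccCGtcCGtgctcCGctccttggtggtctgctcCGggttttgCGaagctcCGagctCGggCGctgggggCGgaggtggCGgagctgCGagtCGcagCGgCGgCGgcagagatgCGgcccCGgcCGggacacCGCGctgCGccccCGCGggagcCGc
Epha4: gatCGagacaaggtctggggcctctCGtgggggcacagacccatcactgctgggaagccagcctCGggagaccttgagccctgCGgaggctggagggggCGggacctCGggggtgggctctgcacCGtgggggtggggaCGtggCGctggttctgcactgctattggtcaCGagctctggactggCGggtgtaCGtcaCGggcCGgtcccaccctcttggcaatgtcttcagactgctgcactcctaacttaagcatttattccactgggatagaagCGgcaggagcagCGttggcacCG
Sema3d: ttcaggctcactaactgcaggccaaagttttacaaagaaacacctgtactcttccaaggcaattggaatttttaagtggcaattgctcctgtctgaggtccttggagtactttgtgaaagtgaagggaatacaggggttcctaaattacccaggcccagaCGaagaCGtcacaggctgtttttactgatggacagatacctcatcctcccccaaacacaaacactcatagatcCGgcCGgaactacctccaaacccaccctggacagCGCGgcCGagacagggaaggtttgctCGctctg
Plxnb3: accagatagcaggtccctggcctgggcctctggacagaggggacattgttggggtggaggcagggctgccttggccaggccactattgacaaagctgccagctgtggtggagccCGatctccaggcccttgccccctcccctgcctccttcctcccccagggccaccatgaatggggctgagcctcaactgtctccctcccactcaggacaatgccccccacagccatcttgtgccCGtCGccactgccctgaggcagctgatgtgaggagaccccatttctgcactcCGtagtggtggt
The Sema5a, Unc5a and Sema6b windows hold 23, 37 and 29 CpG, and the Epha4, Sema3d and Plxnb3 windows 17, 8 and 4. Over the 59 guidance genes with an entry the median was 21 CpG, against 13 over 18144 genes of the table. For the 16 entries of genes higher in LLC1 the median was 24.5 (quartiles 20.5 and 32.5) and for the 28 of genes higher in MLE12 it was 17 (quartiles 10.25 and 30). Motifs were searched as exact letters on both strands. GGGCGG, the GC box bound by Sp1-type factors, whose letters include a CpG, was found in 43 of the 59 windows (72.9%) and in 45.4% of all windows of that length. It was in 16 of 16 windows of genes higher in LLC1 and 20 of 28 of genes higher in MLE12. Among genes not called or not tested it was in 7 of 15. TATAAA, the core of the TATA box, was found in 2 of the 59 (3.4%), against 12.8% of all. By direction, LLC1 first, it was in 1 of 16 and 1 of 28. CAAGTG, a core bound by NKX2 homeodomain proteins, was found in 5 (8.5%), against 13.1%, and by direction in 0 of 16 and 3 of 28. The E-box CACGTG, which also includes a CpG, was found in 3 (5.1%), against 7.9%, and by direction in 2 of 16 and 0 of 28. Differences by direction were not tested. These are counts of letters, and methylation and binding were not measured.

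Ephrin genes were mostly higher in MLE12, with the ephrin-B group far apart. All 8 were tested: 6 were higher in MLE12 and 2 in LLC1, with a median log2 fold change of -1.45. These shares, 75% and 25%, compare with 40.9% and 40.7% of all genes tested. Efnb2 encodes ephrin-B2, a ligand of EphB4 and EphA4 known from the arterial side of vessels (ENSMUSG00000001300, chromosome 8, 8617434 to 8660773, mm10). It stood at 10.7, 11.5, 10.9 and 12.1 CPM in the LLC1 libraries and 189, 199, 196 and 191 CPM in the MLE12 libraries (-4.10 ± 0.05, log2 fold change ± SE, adjusted p = 3.24e-22). All 4 MLE12 libraries lay far above all 4 LLC1 libraries. Efnb1, which encodes the X-linked ephrin-B1, stood at 0.508, 0.43, 0.599 and 0.704 CPM in the LLC1 libraries and 15.5, 15.9, 14.7 and 14.1 CPM in the MLE12 libraries (-4.74 ± 0.12). Here too the lines were widely separated. Efnb3 differed little (2.92 ± 0.533 CPM in LLC1 against 2.02 ± 0.496 in MLE12; 0.52 ± 0.18, adjusted p = 0.0131), its ranges overlapped, and its call ended without MLE12 replicate 2 (0.41, adjusted p = 0.0515). The summed level of the ephrin-B genes was 3.69 ± 0.13 RPKM in LLC1 and 49.8 ± 1.21 RPKM in MLE12, and Efnb2 made up 89.96% ± 0.486 of it in MLE12.

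Ephrin-A genes differed less. Efna1 had the highest RPKM of the group in both lines (4.69 ± 0.385 in LLC1 and 8.5 ± 0.26 in MLE12; -0.85 ± 0.07). Efna2 stood at 1.32, 1.63, 1.32 and 2 CPM in the LLC1 libraries and 6.61, 4.65, 5.23 and 5.32 CPM in the MLE12 libraries (-1.79 ± 0.16), so that every MLE12 library was above every LLC1 library. Efna4 was at 5.99, 5.89, 7.25 and 6.01 CPM in the LLC1 libraries and 14.4, 12.8, 13.6 and 13 CPM in the MLE12 libraries (-1.10 ± 0.08). An antisense gene, 4731419I09Rik, shares 10.5% of the exon bases of Efna4 and had 3315 counts in LLC1 and 21078 in MLE12, against 1241 and 3799 for Efna4 itself. The strand used in counting is not stated, so part of the Efna4 count may belong to that gene. Efna3, low in both lines (0.208 ± 0.0408 and 1.38 ± 0.0802 RPKM; -2.72 ± 0.18), shares 14.1% of its exon bases with the antisense gene Gm15998 (202 counts in LLC1 and 621 in MLE12, against 101 and 948 for Efna3). Efna5 went the other way, with 6.54, 5.78, 4.71 and 4.95 CPM in the LLC1 libraries and 1.36, 1.58, 1.93 and 1.32 CPM in the MLE12 libraries (1.82 ± 0.15, adjusted p = 1.69e-09). It was the 1 ephrin-A gene higher in LLC1, with no overlap between the lines.

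Of the 14 Eph receptor genes, 7 were tested: 2 were higher in LLC1, 4 in MLE12 and 1 was not called. The 85.7% called compare with 81.6% of all genes tested. Epha4, a receptor for ephrins of both groups (ENSMUSG00000026235, chromosome 1, 77367185 to 77515088), stood at 0.37, 0.243, 0.227 and 0.228 CPM in the LLC1 libraries and 92.2, 101, 95.8 and 91.4 CPM in the MLE12 libraries. The log2 fold change was -8.49 ± 0.09 (adjusted p = 6.15e-23), the largest toward MLE12 among the guidance genes tested. The LLC1 level was 0.281% of the MLE12 level, from 16, 13, 11 and 12 counts per library, and whether these reads come from LLC1 transcripts was not tested. Epha2, the receptor of ephrin-A1 that is common in epithelial and carcinoma cells, dominated the EphA sum in both lines, at 94.9% ± 0.325 of it in LLC1 and 72.5% ± 1.55 in MLE12. Its level was 169 ± 4.76 CPM in LLC1 against 155 ± 13.6 in MLE12 (0.12 ± 0.05, adjusted p = 0.0525). The test was not passed with all libraries, but Epha2 was called higher in LLC1 without LLC1 replicate 1 (0.16, adjusted p = 0.0195), without MLE12 replicate 1 (0.14, adjusted p = 0.0284) and without MLE12 replicate 2 (0.13, adjusted p = 0.0422). Over all alternatives its adjusted p ran from 0.00653 to 0.788.

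Epha1 stood at 6.15, 6.19, 5.87 and 5.8 CPM in the LLC1 libraries and 2.48, 2.44, 2.36 and 2.32 CPM in the MLE12 libraries (1.32 ± 0.11). The LLC1 values were all above the MLE12 values, but 6% of its exon bases lie on the opposite strand of Zyx, which had 42575 counts in LLC1 and 29350 in MLE12 against 1186 and 678 for Epha1, so the split of reads is uncertain. Epha10 was called higher in LLC1 at a very low level (0.433 ± 0.238 against 0.0537 ± 0.0252 CPM; 2.91 ± 0.50). Epha3, Epha5 and Epha8 had 2, 5 and 6 counts summed over LLC1 and 10, 2 and 2 over MLE12.

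The 3 EphB genes tested were all higher in MLE12, as were 40.9% of all genes tested. Ephb4, the receptor of ephrin-B2 known from veins, stood at 18.5, 18.8, 17.1 and 18.5 CPM in the LLC1 libraries and 65.9, 67.8, 64 and 56.1 CPM in the MLE12 libraries (-1.80 ± 0.06). Ephb3 was at 7.65, 9.39, 9.92 and 8.68 CPM in the LLC1 libraries and 60.8, 63.3, 61.3 and 54.6 CPM in the MLE12 libraries (-2.75 ± 0.07). Ephb6, whose kinase domain is inactive, was at 2.43, 3.18, 3.62 and 3.48 CPM in the LLC1 libraries and 18.4, 18.7, 19.3 and 16.2 CPM in the MLE12 libraries (-2.51 ± 0.10). In each of the 3 the lowest MLE12 library was above the highest LLC1 library. The CPM ranges of the lines did not overlap for 76.3% of all genes tested. Ephb1 and Ephb2 had no count in LLC1 and 16 and 14 counts over the 4 MLE12 libraries, too few to pass the filter. With no filter both were called higher in MLE12 (Ephb1 -4.80, adjusted p = 0.00842; Ephb2 -4.62, adjusted p = 0.0141). The Ephb2 counts in the MLE12 libraries were 2, 0, 10 and 2, so most came from replicate 3. The EphB genes summed to 6.19 ± 0.233 RPKM in LLC1 and 28 ± 2.03 RPKM in MLE12, and the EphA genes to 38 ± 0.971 and 45.8 ± 3.21 RPKM. MLE12 therefore had higher levels of Efnb2 and of 3 receptors that can bind it, Ephb3, Ephb4 and Epha4, as RNA in the same culture. Of the 8 endothelial markers, 6 were under 1 CPM in MLE12, with Tie1 and Emcn at 0. The other 2 were called higher in MLE12: Tek, an endothelial receptor kinase gene, stood at 2.95 CPM in MLE12 against 0.0563 CPM in LLC1 (-5.57 ± 0.42), and Esam at 1.13 against 0.302 CPM (-1.90 ± 0.27). Their part in the Efnb2 and Ephb4 levels was not tested.

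**Figure D3:**
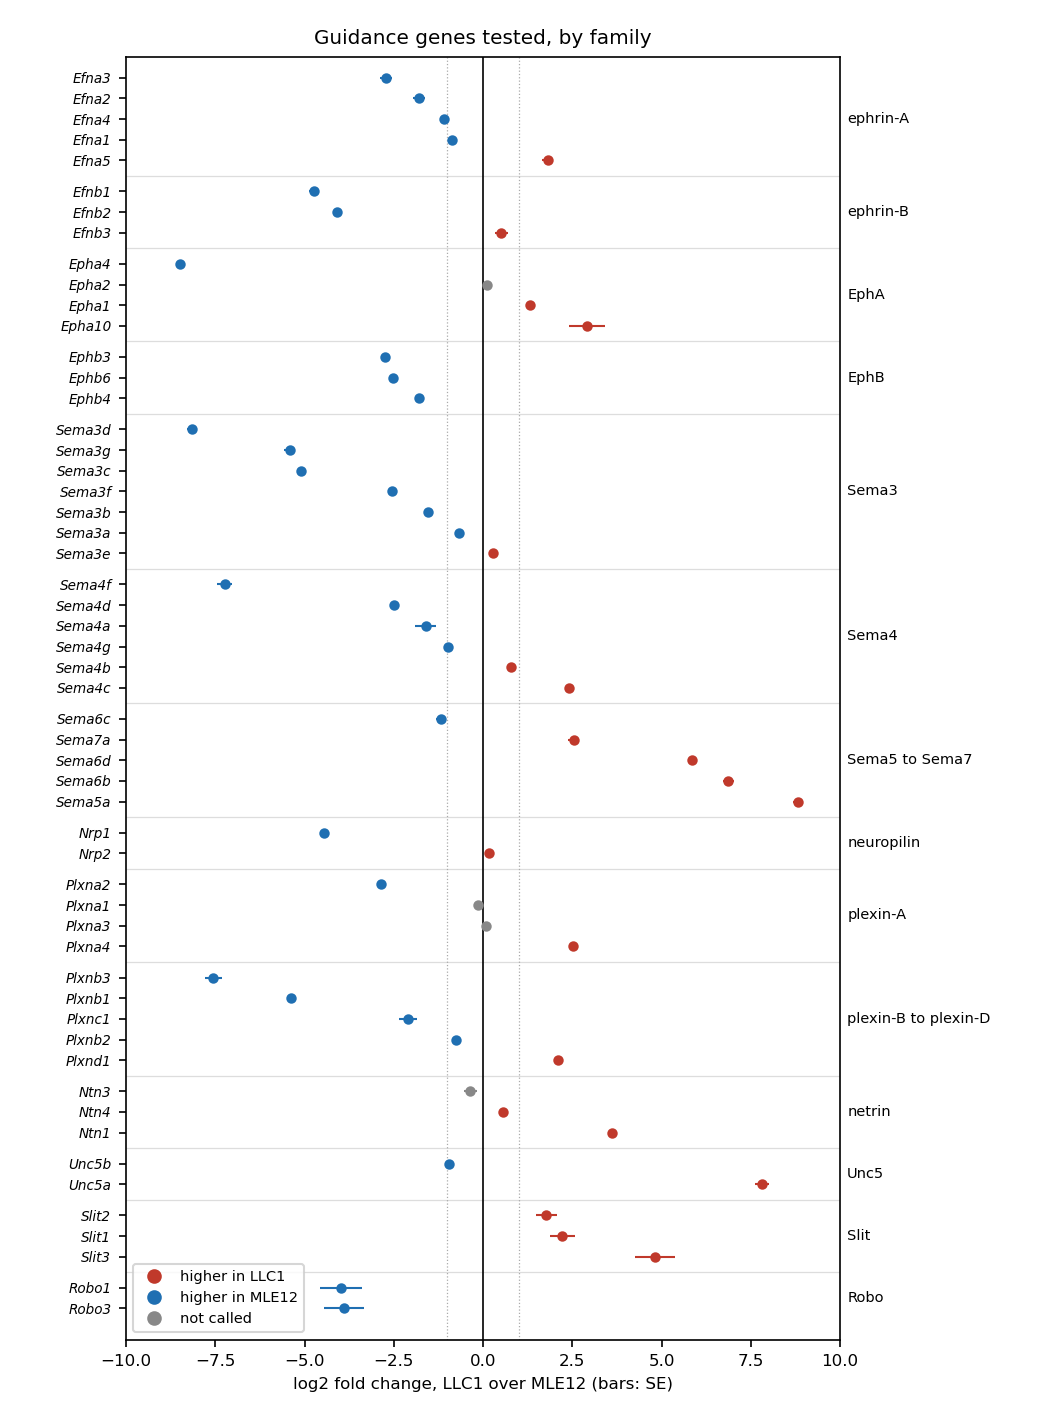
Log2 fold change, LLC1 over MLE12, of the 54 guidance genes tested, grouped by family, with bars of 1 SE and dotted lines at a 2-fold change. Sema3 genes other than Sema3e lie on the MLE12 side, Sema5a, Sema6b, Sema6d and Sema7a on the LLC1 side, and all 3 Slit genes on the LLC1 side.

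Semaphorin genes divided by group. Of 20, 18 were tested and all 18 were called, 7 higher in LLC1 and 11 in MLE12. These shares, 38.9% and 61.1%, compare with 40.7% and 40.9% of all genes tested, of which 81.6% were called. The 7 Sema3 genes, which encode the secreted semaphorins, comprised 6 higher in MLE12 and 1 higher in LLC1, with a median of -2.54. Sema3d (ENSMUSG00000040254, chromosome 5, 12383166 to 12588943) stood at 0.0925, 0.262, 0.207 and 0.171 CPM in the LLC1 libraries and 50.1, 56.9, 52.5 and 56.6 CPM in the MLE12 libraries (-8.16 ± 0.12, adjusted p = 3.12e-21). Sema3c, a ligand of both neuropilins, stood at 0.901, 0.879, 0.889 and 0.704 CPM in the LLC1 libraries and 27.8, 29.2, 29.1 and 30.3 CPM in the MLE12 libraries (-5.11 ± 0.09). Sema3g was at 0.277, 0.168, 0.351 and 0.324 CPM in the LLC1 libraries and 12.3, 12.2, 11.6 and 11.9 CPM in the MLE12 libraries (-5.42 ± 0.15). These 3 genes were near or below 1 CPM in every LLC1 library and above 11 CPM in every MLE12 library. Sema3f, which binds neuropilin-2 and lies in a region often deleted in human lung cancer, stood at 9.84 ± 0.474 CPM in LLC1 against 57.3 ± 4.28 in MLE12 (-2.54 ± 0.06), and its neighbour Sema3b at 2.95 ± 0.347 and 8.59 ± 0.747 CPM (-1.54 ± 0.11). Sema3a, the neuropilin-1 ligand that collapses growth cones, differed by less than 2-fold (51.2 ± 2.22 and 81.9 ± 8.62 CPM; -0.68 ± 0.06). Sema3e, which binds plexin-D1 without a neuropilin, was slightly higher in LLC1 (55.6 ± 2.01 and 46.1 ± 0.493 CPM; 0.27 ± 0.04). Per length, Sema3a and Sema3e made up most of the Sema3 sum in LLC1 (7.91 ± 0.343 and 7.33 ± 0.265 of 18 ± 0.176 RPKM). In MLE12 the sum of 46.6 ± 1.2 RPKM was spread over Sema3a (12.7 ± 1.33), Sema3f (11 ± 0.823), Sema3d (8.29 ± 0.506), Sema3e (6.09 ± 0.065) and Sema3c (4.07 ± 0.142).

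The 6 Sema4 genes, which encode membrane semaphorins, were split into 2 higher in LLC1 and 4 higher in MLE12. These shares, 33.3% and 66.7%, compare with 40.7% and 40.9% of all genes tested. Sema4c, a ligand of plexin-B2, stood at 105, 114, 109 and 114 CPM in the LLC1 libraries and 20.8, 20.7, 21.4 and 19.9 CPM in the MLE12 libraries (2.42 ± 0.05, adjusted p = 1.9e-19). Each LLC1 library was far above the MLE12 libraries, and Sema4c made up 66.4% ± 1.19 of the Sema4 sum in LLC1. Sema4b was also higher in LLC1 (57.8 ± 2.3 and 33.7 ± 1.34 CPM; 0.78 ± 0.05). Sema4f stood at 0.0231, 0.0748, 0.103 and 0.0571 CPM in the LLC1 libraries and 11.4, 10.8, 9.62 and 8.96 CPM in the MLE12 libraries (-7.23 ± 0.21). Sema4d, the ligand of plexin-B1, stood at 1.99, 1.46, 1.3 and 1.54 CPM in the LLC1 libraries and 8.96, 8.95, 8.72 and 8.32 CPM in the MLE12 libraries (-2.48 ± 0.12). Both were higher in all MLE12 libraries, as were Sema4g (-0.99 ± 0.09) and the low Sema4a (0.429 ± 0.182 and 1.3 ± 0.395 CPM; -1.61 ± 0.29). Of all genes tested, 76.3% had ranges without overlap. The Sema4 sum was 36.3 ± 0.958 RPKM in LLC1 and 16.7 ± 0.654 RPKM in MLE12.

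The membrane semaphorins of the Sema5 to Sema7 groups were the reverse of the Sema3 group, with 4 of 5 tested genes higher in LLC1 and a median of 5.84. That is 80%, against 40.7% of all genes tested. Sema5a, which carries thrombospondin repeats and binds plexin-B3 (ENSMUSG00000022231, chromosome 15, 32244813 to 32696341), stood at 32.7, 32.5, 32 and 36.2 CPM in the LLC1 libraries and 0.0388, 0.0663, 0.0635 and 0.14 CPM in the MLE12 libraries. Its log2 fold change of 8.83 ± 0.14 (adjusted p = 9.67e-21) was the largest toward LLC1 among the guidance genes tested, and the MLE12 level rested on 3, 5, 5 and 7 counts per library. Sema6b was at 27.3, 26, 26.7 and 25.9 CPM in the LLC1 libraries and 0.116, 0.252, 0.343 and 0.16 CPM in the MLE12 libraries (6.88 ± 0.14). Sema6d, a ligand of plexin-A1 and plexin-A4, was at 68.6, 74.5, 71.3 and 72.8 CPM in the LLC1 libraries and 1.16, 1.07, 1.29 and 1.54 CPM in the MLE12 libraries (5.84 ± 0.08). All 3 were above 25 CPM in each LLC1 library and under 2 CPM in each MLE12 library. Sema7a, which is held by a lipid anchor and binds plexin-C1 and integrins, was lower but also higher in LLC1 (4.94 ± 0.66 and 0.856 ± 0.136 CPM; 2.54 ± 0.16). Sema6c was higher in MLE12 (2.08 ± 0.31 and 4.74 ± 0.228 CPM; -1.18 ± 0.13). Sema5b and Sema6a had at most 11 counts over a line. Summed over the group the level was 18.4 ± 0.385 RPKM in LLC1 and 1.25 ± 0.0818 RPKM in MLE12, a ratio of 14.7, and no gene of the group reached 1 RPKM in every MLE12 library, whereas 4 did in LLC1.

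**Figure D4:**
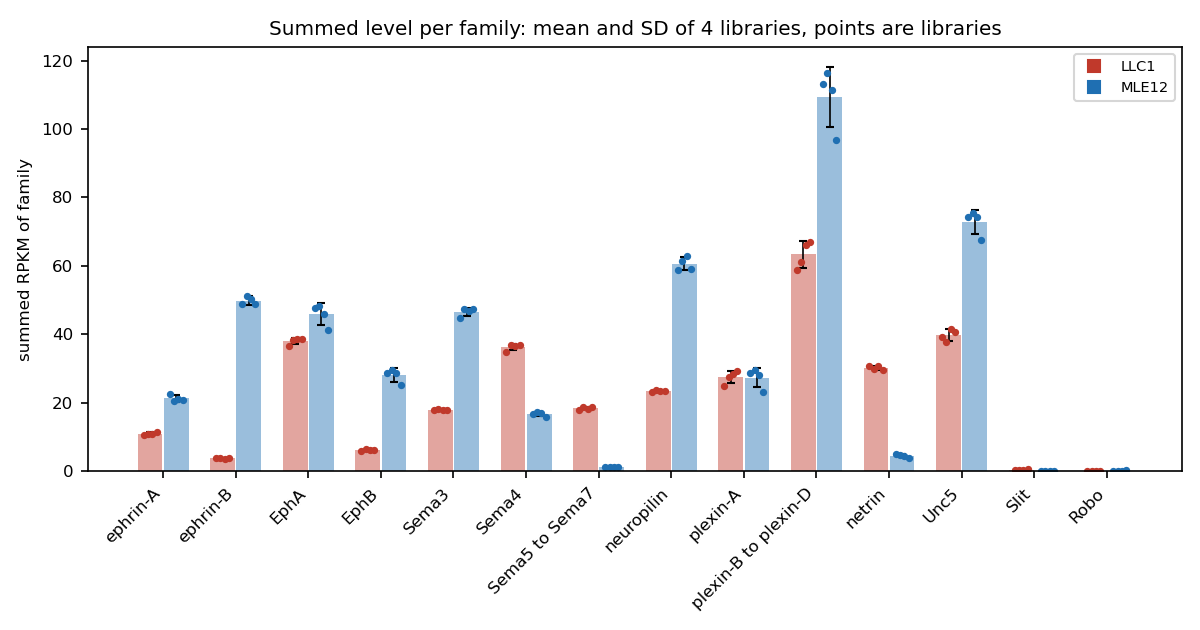
Summed RPKM of each family, with bars for the mean of 4 libraries, error bars of 1 SD and 1 point per library. The ephrin-A, ephrin-B, EphB, Sema3, neuropilin, plexin-B to plexin-D and Unc5 sums are higher in MLE12, the Sema4, Sema5 to Sema7 and netrin sums are higher in LLC1, and Slit and Robo are near 0 in both lines.

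The neuropilin genes, which encode co-receptors for Sema3 ligands and for VEGF, differed from each other. Nrp1 (ENSMUSG00000025810, chromosome 8, 128359073 to 128505462) stood at 10.7, 11, 12.4 and 11 CPM in the LLC1 libraries and 237, 247, 256 and 240.3 CPM in the MLE12 libraries (-4.44 ± 0.06, adjusted p = 2.95e-22). Every MLE12 library was far above the LLC1 libraries. Nrp2 stood at 254, 259, 251 and 257 CPM in the LLC1 libraries and 222, 232, 230.5 and 219 CPM in the MLE12 libraries (0.18 ± 0.04, adjusted p = 0.000446). The Nrp2 ranges did not overlap, but the difference was small, and its call ended with library totals alone (0.08, adjusted p = 0.14; 7.16e-06 to 0.14 over all alternatives). Nrp2 made up 91.9% ± 0.599 of the neuropilin sum in LLC1, and Nrp1 68.5% ± 0.466 of it in MLE12.

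Plexin genes were all tested, and of the 9, 2 were higher in LLC1, 5 in MLE12 and 2 were not called. The 77.8% called compare with 81.6% of all genes tested. In the plexin-A group, the partners of neuropilins, the sum was alike in size (27.5 ± 1.82 RPKM in LLC1 and 27.3 ± 2.81 RPKM in MLE12), while its members were not. Plxna2 stood at 9.04, 8.34, 9.57 and 8.56 CPM in the LLC1 libraries and 63.5, 68.6, 67.8 and 57.3 CPM in the MLE12 libraries (-2.86 ± 0.07). Plxna4 stood at 67.7, 74.3, 72.5 and 79.3 CPM in the LLC1 libraries and 12.9, 14.2, 11.7 and 12.3 CPM in the MLE12 libraries (2.52 ± 0.06). The 2 genes thus had opposite directions, each without overlap. Plxna1, the most abundant of the group, did not pass the test (155 ± 11.5 and 169 ± 19.8 CPM; -0.13 ± 0.08, adjusted p = 0.147), but was called higher in MLE12 without MLE12 replicate 4 (-0.21, adjusted p = 0.00043) and with library totals alone (-0.23, adjusted p = 0.0375). An antisense gene, Gm26811, shares 10.7% of its exon bases. Plxna3 also did not pass (32.4 ± 2.27 and 30.7 ± 2.47 CPM; 0.08 ± 0.06, adjusted p = 0.279), except without LLC1 replicate 1 (0.14, adjusted p = 0.0499), and its sign turned with library totals alone (-0.02).

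Plexin-B genes were higher in MLE12 in each case, as were 40.9% of all genes tested. Plxnb1, the Sema4d receptor, stood at 2.73, 2.34, 2.19 and 2.44 CPM in the LLC1 libraries and 106, 104, 103 and 92.3 CPM in the MLE12 libraries (-5.39 ± 0.07, adjusted p = 6.95e-22). Plxnb3, the Sema5a receptor on the X chromosome, stood at 0.0462, 0, 0.165 and 0.19 CPM in the LLC1 libraries and 19.9, 19.98, 20.8 and 16.8 CPM in the MLE12 libraries (-7.55 ± 0.24). Both were higher in all 4 MLE12 libraries, and the Plxnb3 level in LLC1 rested on 2, 0, 8 and 10 counts. Sema5a and Plxnb3, a known ligand and receptor pair, were thus on opposite sides, while Sema4d and Plxnb1 were both higher in MLE12. Plxnb2 was the guidance gene of highest RPKM in both lines, at percentile 94.4 of all genes tested in LLC1 and 97.2 in MLE12, and differed by less than 2-fold (393 ± 25.2 and 666 ± 53.8 CPM; -0.76 ± 0.06). Plxnd1, the Sema3e receptor, was higher in LLC1, with 51, 55.5, 56.5 and 58.7 CPM in the LLC1 libraries and 14.1, 14.9, 12.5 and 9.84 CPM in the MLE12 libraries (2.10 ± 0.10). Its lowest LLC1 library was above its highest MLE12 library. Plxnc1, the Sema7a receptor, was low and higher in MLE12 (0.839 ± 0.39 and 3.6 ± 0.29 CPM; -2.09 ± 0.26), opposite in direction to Sema7a.

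In the netrin system the ligand was higher in LLC1 and its most abundant receptor higher in MLE12. Ntn1, which encodes netrin-1 (ENSMUSG00000020902, chromosome 11, 68209364 to 68400823), stood at 173, 168, 172 and 166 CPM in the LLC1 libraries and 14.7, 15.2, 13.4 and 12.4 CPM in the MLE12 libraries (3.60 ± 0.06, adjusted p = 1.17e-20). All LLC1 libraries were far above all MLE12 libraries. Ntn4, a basement membrane netrin, stood at 9.8, 10.2, 11.1 and 9.48 CPM in the LLC1 libraries and 8, 6.23, 7.02 and 5.96 CPM in the MLE12 libraries (0.57 ± 0.10), a small difference without overlap. Ntn3 did not pass the test (1.74 ± 0.34 and 2.22 ± 0.452 CPM; -0.36 ± 0.18, adjusted p = 0.0806). It was called higher in MLE12 without LLC1 replicate 1 (-0.43, adjusted p = 0.048), without MLE12 replicate 4 (-0.47, adjusted p = 0.0208), with no filter (-0.40, adjusted p = 0.0489) and with library totals alone (-0.46, adjusted p = 0.0274). Ntn5 had 32 counts over LLC1 and 26 over MLE12 and shares 23.4% of its exon bases with the opposite strand of Sec1. The netrin sum was 30.2 ± 0.618 RPKM in LLC1, 89.6% ± 0.28 of it from Ntn1, and 4.53 ± 0.494 RPKM in MLE12.

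Unc5b, a netrin receptor that can trigger cell death when unbound (ENSMUSG00000020099, chromosome 10, 60762610 to 60831581), stood at 216, 208, 228 and 226 CPM in the LLC1 libraries and 434, 441, 434 and 396 CPM in the MLE12 libraries (-0.96 ± 0.05, adjusted p = 2.91e-13). It was 1.94-fold higher in MLE12, and per length it was second to Plxnb2 in both lines. Unc5a was near the floor in MLE12, with 9.29, 8.61, 9.82 and 9.25 CPM in the LLC1 libraries and 0.0259, 0.0265, 0.0635 and 0.04 CPM in the MLE12 libraries (7.81 ± 0.20). Its MLE12 level rested on 2, 2, 5 and 2 counts. Unc5c had no count in LLC1 and 8 over MLE12, and Unc5d none. The netrin receptor gene Dcc had no count in any of the 8 libraries, whereas Neo1, which encodes neogenin, stood at 239.7 ± 5.82 CPM in LLC1 against 219 ± 7.5 in MLE12 (0.13 ± 0.04).

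Slit and Robo genes were low in both lines, and none reached 1 RPKM in every library of a line. The 3 Slit genes were called higher in LLC1, as were 40.7% of all genes tested. Slit1 stood at 1.09, 0.786, 0.765 and 1.67 CPM in the LLC1 libraries and 0.22, 0.172, 0.381 and 0.12 CPM in the MLE12 libraries (2.22 ± 0.36, adjusted p = 1.19e-05). The ranges did not overlap, though LLC1 replicate 4 stood well above the other LLC1 libraries. Slit2 was at 0.908 ± 0.227 and 0.262 ± 0.0242 CPM (1.78 ± 0.29) and Slit3 at 0.765 ± 0.263 and 0.0259 ± 0.0314 CPM (4.83 ± 0.56), or 5.97 for Slit3 without MLE12 replicate 3. Robo3 stood at 0.543, 0.464, 0.469 and 0.76 CPM in the MLE12 libraries and 0, 0.0935, 0.0413 and 0 CPM in the LLC1 libraries (-3.89 ± 0.56, adjusted p = 3.01e-06), from 42, 35, 37 and 38 counts in MLE12. The Robo3 log2 fold change was -5.12 without LLC1 replicate 2. Robo1 was likewise low and higher in MLE12 (17, 27, 29 and 24 counts, against 1, 0, 1 and 2 in LLC1; -3.98 ± 0.59). Robo2 had 57 counts over MLE12 and 2 over LLC1 and was called higher in MLE12 with no filter (-4.08, adjusted p = 2.2e-05), and Robo4, the endothelial member, had 1 count in all.

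Genes that work with these receptors were counted from a list of 64 chosen by function, with earlier results of these data known. How far that choice affects the shares of this list was not tested. Of these, 57 were tested, 26 were higher in LLC1, 28 in MLE12 and 3 were not called, which is 94.7% called against 81.6% of all genes, with a median log2 fold change of -0.05, also with the 1 gene of no count in LLC1 set to its bound. Against a 2-fold minimum 18 were higher in LLC1 and 13 in MLE12, together 54.4% against 33.7% of all genes. The collapsin response mediator genes, which act downstream of Sema3a, were divided: Dpysl3 and Crmp1 were higher in LLC1, Dpysl5 and Dpysl2 were higher in MLE12, and Dpysl4 was too low to be tested. Dpysl3 stood at 277, 272, 279.6 and 269 CPM in the LLC1 libraries and 0.362, 0.477, 0.469 and 0.96 CPM in the MLE12 libraries (9.00 ± 0.12). Crmp1 stood at 10.6, 9.5, 10.4 and 10.4 CPM in the LLC1 libraries and 0.0517, 0, 0.0127 and 0.02 CPM in the MLE12 libraries (8.77 ± 0.24, or 9.73 without MLE12 replicate 1). Dpysl5 was at 0.0811 ± 0.0491 CPM in LLC1 against 8.92 ± 0.552 in MLE12 (-6.75 ± 0.21), and Dpysl2 at 59.7 ± 6.59 against 85.5 ± 10.6 CPM (-0.52 ± 0.09, adjusted p = 0.000231), both named after their values were seen. Ngef, which encodes an ephexin that acts downstream of EphA4, was at 27.8, 29.9, 32.8 and 32.3 CPM in the LLC1 libraries and 0.142, 0.212, 0.317 and 0.18 CPM in the MLE12 libraries (7.14 ± 0.13). Ngef was thus higher in the line with the lower Epha4 level. Toward MLE12 were the actin-binding gene Ablim1 (0.0925, 0.0374, 0.165 and 0.19 CPM in the LLC1 libraries and 21.6, 20.3, 20.4 and 18.3 CPM in the MLE12 libraries; -7.35 ± 0.17) and Flrt3, whose protein binds Unc5 and Robo receptors (0.208, 0.355, 0.289 and 0.4 CPM in the LLC1 libraries and 42, 41.7, 45.6 and 46.6 CPM in the MLE12 libraries; -7.10 ± 0.11). Mical1, a plexin-A effector that oxidises actin, stood at 14.2, 12.9, 14.8 and 14.7 CPM in the LLC1 libraries and 199, 197, 201 and 175 CPM in the MLE12 libraries (-3.77 ± 0.06). The 6 partners given library by library did not overlap between the lines, but they were chosen as called genes with the largest changes. Of the 57 partners tested, 54 (94.7%) did not overlap, against 76.3% of all genes tested. Kdr, the VEGF receptor that pairs with neuropilin-1, had too few counts to be tested (0.0862 and 0.182 CPM), and the plexin-B partners Met (3.73 ± 0.05) and Erbb2 (-1.90 ± 0.05) were on opposite sides.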

How the data were processed

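Poly-A RNA of both lines was sequenced as paired reads. The deposited values are raw counts per gene. The tools named in the submitters' processing notes are CASAVA, TopHat2, featureCounts and edgeR, with build mm10. Their versions, the strand setting and the annotation release are not given in the sources used here. The gene length used for RPKM is that of the file header.

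The fit used edgeR 4.0.16 (R 4.3.3), with filterByExpr by cell line, TMM factors (0.924 to 1.04), robust glmQLFit, glmQLFTest and Benjamini-Hochberg adjustment over 18546 genes, called under 0.05, and glmTreat for a 2-fold minimum. The SE is the log2 fold change over the square root of F. Libraries of a line differed beyond sampling noise (chi-square 5.36 to 41.7 for each degree of freedom), so none was a copy. Values per library are given for up to 3 called members of a family, by size of change, that reached 5 CPM in either line (otherwise the member of highest RPKM), and for up to 3 called partners per direction that reached 10 CPM. Exon overlaps came from GENCODE M21, the same build, with 67 of 68 members matched by ID (not Ntn3). Of these, 44 had the coordinates and 35 the exon length of the deposited table. The overlap percentages are of the GENCODE exons, which can differ from those counted. Promoters came from RefSeq GRCm38.p6, with 59 matched by symbol and the start nearest the deposited 5′ end used. The fit was tested on simulated data. Alternatives were DESeq2 1.42.0, limma-voom (limma 3.58.1), other scalings (DESeq2 size factors, upper quartile, library totals alone), no filter or 1 CPM in 4 libraries, a replicate block, and each library left out. The members and lists were chosen with earlier results of these data known.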

Additional observations from a re-analysis of the deposited data

Results flagged for a closer look

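Among the 32 guidance genes given library by library, 64 groups of 4 libraries were screened for 1 library far from the other 3 (by Dixon's ratio of gap to range), and 6 were found, where chance gives about 1 in 20. LLC1 replicate 1 had 0.37 CPM of Epha4, against 0.227 to 0.243 CPM in the other LLC1 libraries. LLC1 replicate 3 had 7.25 CPM of Efna4, against 5.89 to 6.01 CPM, and 17.1 CPM of Ephb4, against 18.5 to 18.8 CPM. LLC1 replicate 4 had 0.704 CPM of Sema3c, against 0.879 to 0.901 CPM, and 36.2 CPM of Sema5a, against 32 to 32.7 CPM. MLE12 replicate 4 had 396 CPM of Unc5b, against 434 to 441 CPM. In each of these 6 genes the lines did not overlap with the outlying library included. The choice of called members with the largest changes favoured this, and 76.3% of all genes tested did not overlap either.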

How the results depend on the processing

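The numbers of guidance genes called, 20 higher in LLC1 and 30 in MLE12, stayed within 1.5 times of these values under all 17 alternatives. With each library left out in turn they ran from 20 to 22 and from 30 to 32, and for the pathway partners from 26 to 27 and from 28 to 29. The number of partners higher in MLE12 was 13 with a 2-fold minimum in place of any difference, a stricter question by construction. The log2 fold change of Plxna3, which was not called, turned to -0.0209 with library totals alone, which also moved the median of all genes to -0.08 from 0.02. Of the 54 members and 6 partners named, 54 kept direction and call in each of the 16 fold change alternatives in which they were tested. Sema4a, Epha10, Slit1, Slit2, Slit3, Robo1 and Robo3 were not tested at a minimum of 1 CPM in 4 libraries. Those with a changed call or direction were Epha2, Nrp2, Efnb3, Plxna1, Plxna3 and Ntn3, and the cause was not tested. Deviations of libraries with the same replicate number in the titles correlated at -0.01, 0.11, 0.08 and -0.07. The best correlations with another number were 0.068, 0.054, 0.043 and 0.044. Replicates 2 and 3 were thus closer to their own number and replicates 1 and 4 were not, so these values do not settle whether the numbers pair the libraries. With the replicate number as a block the calls were 20 and 30 for guidance genes and 26 and 28 for partners. The Slit, Robo and untested members rest on few counts. The size of Plxnb3 moved to -8.23 with limma-voom.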

Other observations

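Several guidance genes lie next to each other in the genome, and neighbours were compared within 1 Mb, in the coordinates of the deposited table (mm10). Efna1, Efna3 and Efna4 lie within a cluster on chromosome 3, with gaps of 32.8 and 10.4 kb, and all 3 were higher in MLE12 (-0.85, -2.72 and -1.10). Antisense genes share 14.1% of the exon bases of Efna3 and 10.5% of those of Efna4, so their counts are less certain. Sema3b and Sema3f on chromosome 9, 72.3 kb apart, were also both higher in MLE12 (-1.54 and -2.54). Of all genes tested, 40.9% were higher in MLE12. On chromosome 5 the neighbours Sema3d, Sema3a and Sema3e, with gaps of 807.8 and 422.7 kb, had log2 fold changes of -8.16, -0.68 and 0.27, so that direction and size differed along the cluster. Ephb6 and Epha1 on chromosome 6, 738 kb apart, went opposite ways (-2.51 and 1.32), and Plxnb3 (-7.55) lies 556.6 kb from Plxna3, which was not called (0.08). Robo4 and Robo3 lie 1.6 kb apart on chromosome 9. Robo4 had 0 counts in LLC1 and 1 in MLE12, and Robo3 was low, with means of 0.0337 CPM in LLC1 and 0.559 CPM in MLE12. Of the 11 neighbouring pairs found, 3 had an untested member.

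Among the 54 guidance genes tested, the lowest level relative to the other line was that of Sema5a in MLE12 (0.231% of the LLC1 mean). Next were Epha4 (0.281%), Sema3d (0.339%), Plxnb3 (0.518%) and Sema4f (0.634%) in LLC1, and Unc5a (0.422%) and Sema6b (0.822%) in MLE12.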
